A study of Mus musculus with 35 samples.

Results

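A set of 10 genes (of the 39109 entries of the striatal count table, 1 row each) that encode enzymes able to place acetyl groups on histones are described here across 4 genotype groups: Crebbp, Ep300, Kat2a, Kat2b, Kat5, Kat6a, Kat6b, Kat8, Ncoa1 and Hat1. They were chosen by gene symbol. RNA came from striatal tissue of 35 mice on a largely C57BL/6J background aged 21.7 to 23.0 weeks, with 1 library per mouse. In the Htt+/+ Hdac2 WT group (n = 8, 5 males and 3 females) both huntingtin genes were wild type. In the HttQ111/+ Hdac2 WT group (n = 7, 4 males and 3 females) 1 huntingtin gene carried a knock-in CAG repeat of 110 to 140 units. In the Htt+/+ Hdac2 KO (n = 9, 5 males and 4 females) and HttQ111/+ Hdac2 KO (n = 11, 8 males and 3 females, 110 to 144 CAG units) groups both Hdac2 genes were floxed and the D9-Cre transgene was present. D9-Cre is driven by regulatory sequence of Ppp1r1b (DARPP-32) and switches on at 5 to 6 weeks of age in medium-spiny neurons (MSNs), which form most of the striatal neuron population. Other striatal cells keep Hdac2. No Hdac2 WT mouse carried Cre. Cre and the loss of HDAC2 therefore cannot be told apart. The labels give the Hdac2 WT mice as wild type for Hdac2, while a sample table in the authors' code records them with 2 floxed alleles and without Cre, except 2 Htt+/+ mice (replicates 1 and 2) with 1 floxed allele.

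Acetylation of lysines in histone tails loosens the contact of histones with DNA and creates binding sites for bromodomain proteins. Acetyltransferases take the acetyl group from acetyl-CoA, and deacetylases such as HDAC2 remove it, so that the level of the mark reflects both kinds of enzyme. CBP (Crebbp) and its paralogue p300 (Ep300) are recruited by phosphorylated CREB and by many other activators, and in neurons they take part in gene responses to activity. CBP is also a much studied binding partner of polyglutamine proteins, mutant huntingtin among them.

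Depth was similar across libraries. The totals on genes were 50970712 to 77867348 counts, the highest in HttQ111/+ Hdac2 KO replicate 1. Each p-value rests on the spread between mice that remains after the covariates of its fit. All 10 genes passed the count filter in all 6 comparisons, with 753 counts (Kat8) to 13006 counts (Ncoa1) per library. As a check of the labels, Hdac2 counted over the whole gene, which takes in exons outside the deleted ones and cells that keep the gene, was 103 ± 3.42 CPM (the count scaled to library size, with the TMM correction for library composition; mean ± SD) in Htt+/+ Hdac2 WT and 94.4 ± 2.98 in Htt+/+ Hdac2 KO. Hdac1, its paralogue, was 6.06 ± 0.513 and 8.998 ± 0.507 CPM. All 10 MSN markers on a fixed list were above 0 in every library. Their summed level was 7981 to 9164 CPM in Htt+/+ Hdac2 WT and 5785 to 7899 CPM in HttQ111/+ Hdac2 WT, which did not overlap, and 7532 to 8881 and 6514 to 8252 CPM in the Htt+/+ and HttQ111/+ Hdac2 KO groups. Summed cortical projection neuron markers were 14.7 to 438 CPM and those of choroid plexus 17.6 to 214 CPM over all libraries. Fewer cells of a type and less RNA per cell cannot be told apart in bulk tissue. The authors describe neuronal loss as very subtle or not observed in this model, and report no significant MSN loss with Hdac2 KO.

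Per kilobase of exon, the scale on which levels of different genes may be compared, Kat2a and Ncoa1 stood highest and Kat6b and Crebbp lowest in the 35 libraries. The means were 19.7 ± 1.02 CPM per kb for Kat2a, the catalytic subunit GCN5 of the SAGA and ATAC complexes, and 19.1 ± 1.06 for Ncoa1, a p160 coactivator of nuclear receptors. Kat5 (TIP60, which acetylates H4 and H2A) followed at 12.9 ± 0.559 and Kat6a (MOZ, an H3 acetyltransferase) at 10.9 ± 0.814. Kat2b (PCAF, the paralogue of GCN5) was at 7.93 ± 0.645, Hat1 (which acetylates newly made H4 before it enters chromatin) at 6.81 ± 0.558, Ep300 at 6.42 ± 0.4996 and Kat8 (MOF, which acetylates H4) at 5.68 ± 0.396. Kat6b (MORF, the paralogue of MOZ) was at 4.22 ± 0.365 and Crebbp at 4.11 ± 0.479 CPM per kb. Neighbours in this order overlapped in range except Ncoa1 and Kat5. Within libraries, Kat2a was above Ncoa1 in 26 of 35, Hat1 above Ep300 in 27 of 35, and Kat6b above Crebbp in 22 of 35. In Htt+/+ Hdac2 WT mice Crebbp was above Kat6b in 3 of 8 libraries although its mean was slightly higher. These values rest on annotated exon lengths, while the authors counted reads over the whole gene, introns included.

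**Figure D1:**
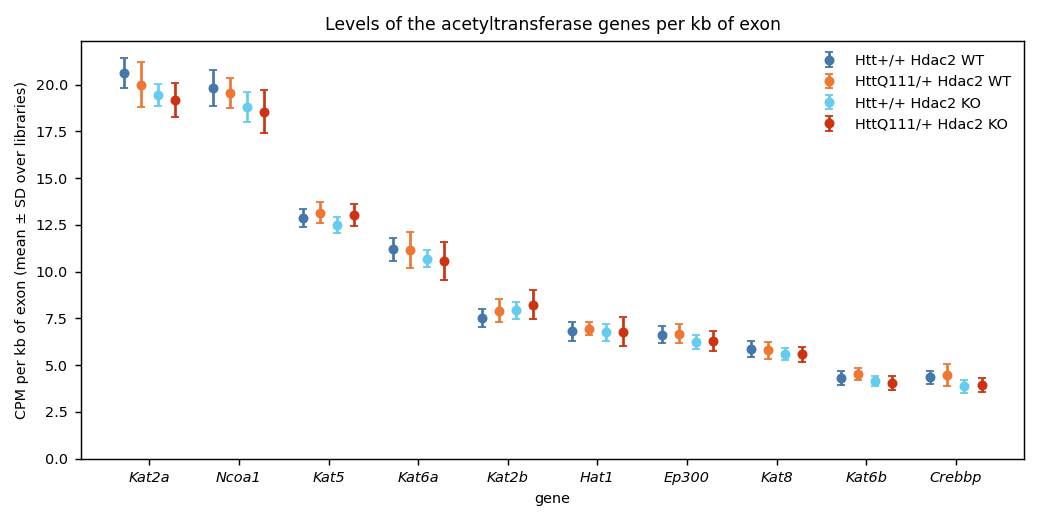
CPM per kb of exon for each of the 10 genes (horizontal axis), with points at the mean and bars at ± 1 SD over the 8, 7, 9 and 11 libraries of the 4 groups. Over all libraries Kat2a and Ncoa1 stand at 19.7 and 19.1 CPM per kb and Kat6b and Crebbp at 4.22 and 4.11, and the 4 groups lie close to each other in every gene.

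Promoter sequences are shown for Crebbp, its paralogue Ep300, Kat6b and Kat2a, as the 250 bases before the RefSeq start, on the strand of the gene. Those of the other genes are not shown. Capitals mark the GC box (GGGCGG) and the half-site of the cAMP response element (TGACG), searched on both strands. RefSeq windows on GRCm38.p6 were found for 9 of the 10 genes, and Kat6a has none. Crebbp lies at chr16:4213405-4213654 (minus strand), Ep300 at chr15:81585964-81586213 (plus strand), Kat6b at chr14:21499520-21499769 (plus strand) and Kat2a at chr11:100712468-100712717 (minus strand). The RefSeq start of Kat6b used here lies 18336 bases inside its counted interval, so the sequence is that of an internal start.
Crebbp: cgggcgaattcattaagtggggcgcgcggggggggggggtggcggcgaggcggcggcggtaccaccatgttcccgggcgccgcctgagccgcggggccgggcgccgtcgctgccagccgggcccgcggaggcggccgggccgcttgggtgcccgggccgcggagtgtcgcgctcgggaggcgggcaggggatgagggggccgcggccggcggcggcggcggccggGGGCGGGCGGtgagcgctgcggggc
Ep300: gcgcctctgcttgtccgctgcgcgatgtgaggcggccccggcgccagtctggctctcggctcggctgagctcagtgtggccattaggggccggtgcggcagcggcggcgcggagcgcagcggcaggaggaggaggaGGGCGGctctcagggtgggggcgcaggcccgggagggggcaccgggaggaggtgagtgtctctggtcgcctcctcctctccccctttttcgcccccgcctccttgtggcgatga
Kat6b: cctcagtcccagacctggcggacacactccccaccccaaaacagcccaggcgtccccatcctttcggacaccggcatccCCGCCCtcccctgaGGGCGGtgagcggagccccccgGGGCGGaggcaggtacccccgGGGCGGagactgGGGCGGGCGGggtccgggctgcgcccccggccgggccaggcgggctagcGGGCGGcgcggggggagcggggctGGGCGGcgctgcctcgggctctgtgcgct
Kat2a: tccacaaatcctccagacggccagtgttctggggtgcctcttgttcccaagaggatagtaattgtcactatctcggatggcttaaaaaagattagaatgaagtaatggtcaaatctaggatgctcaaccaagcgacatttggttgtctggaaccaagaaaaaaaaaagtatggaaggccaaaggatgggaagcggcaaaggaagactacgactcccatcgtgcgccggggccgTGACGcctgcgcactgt

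The first 3 sequences hold 84.0% (Crebbp), 73.2% (Ep300) and 78.8% (Kat6b) G and C, against 48.8% in Kat2a and a median of 52.4% over all 32851 mouse windows. GC boxes numbered 2 in Crebbp, where they overlap, 1 in Ep300 and 8 in Kat6b. They occurred in 6 of the 9 windows and in 32.7% of all windows. The half-site occurred once each in Kat2a, Kat2b, Kat5 and Kat8, and in 17.8% of all windows. The full element TGACGTCA was in 0 of the 9 windows and in 1.55% of all, and the E-box CACGTG was in those of Kat5, where it overlaps the half-site, and Hat1, and in 6.02% of all.

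The counted intervals of the genes named most often are as follows. On GRCm38, Crebbp is on chromosome 16 from 4084048 to 4213404, Ep300 on chromosome 15 from 81586214 to 81652077, Kat6b on chromosome 14 from 21481434 to 21671206, Kat2a on chromosome 11 from 100704746 to 100712465 and Kat2b on chromosome 17 from 53566861 to 53672071. Among entries spanning over 250 nt, those of other genes overlap only Kat2b (Gm6919), Kat8 (Prss8), Ncoa1 (Gm22343) and Hat1 (Gm13642). None of these entries had more than 8 counts in any library, and shorter entries were not examined.

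**Figure D2:**
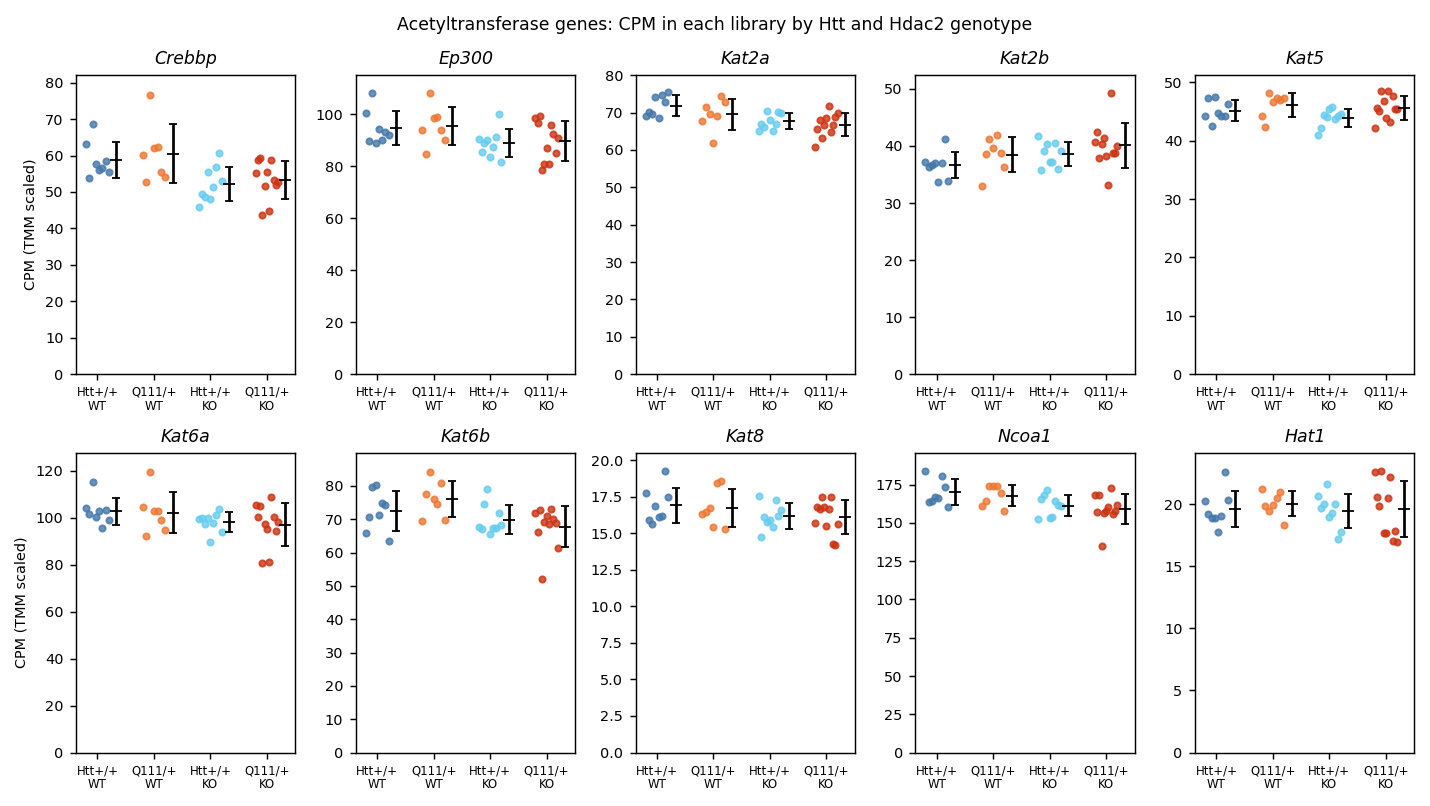
CPM of the 10 genes in each of the 35 libraries, by genotype group on the horizontal axis, with the mean and ± 1 SD in black beside the points. No gene has separate ranges in any of the 5 contrasts between groups, and the share of all genes with separate ranges is not given here. In HttQ111/+ Hdac2 KO all 11 Crebbp values lie below the mean of HttQ111/+ Hdac2 WT.

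Of the CBP and p300 pair, Crebbp passed the threshold in 1 contrast, that between Hdac2 KO and Hdac2 WT striata that carry the HttQ111 allele, and Ep300 in none. Crebbp ranged from 52.7 to 76.6 CPM with a median of 60.04 in HttQ111/+ Hdac2 WT, and from 43.6 to 59.4 CPM with a median of 53.3 in HttQ111/+ Hdac2 KO. In Htt+/+ mice it ranged from 53.7 to 68.8 CPM (median 57.1) in Hdac2 WT and from 45.7 to 60.6 CPM (median 51.5) in Hdac2 KO. The median was lower in Hdac2 KO in both backgrounds, with overlapping ranges. Means in HttQ111/+ mice follow by series of animal IDs (named by their letter) and by sex. HttQ111/+ mice of series V carried 131 to 144 CAG units and those of series A and Z 110 to 118. Series and repeat length therefore cannot be told apart. In series V the mean was 67.0 CPM in 3 Hdac2 WT and 50.9 CPM in 5 Hdac2 KO libraries. In series Z it was 54.8 and 52.6 CPM, and in series A, where Hdac2 KO was the higher, 56.4 and 57.8 CPM (2 Hdac2 WT and 3 Hdac2 KO libraries in each). It was 63.6 and 52.3 CPM in males (4 and 8 libraries) and 56.3 and 55.6 CPM in females (3 and 3). Whether the difference itself varies between series or sexes was not tested. In HttQ111/+ mice (contrast 2, Hdac2 KO against Hdac2 WT) the fitted log2 fold change of Crebbp was −0.17 ± 0.06 (SE), a 0.890-fold level, with an adjusted p of 0.0399. All 11 Hdac2 KO libraries were below the Hdac2 WT mean. In Htt+/+ mice (contrast 1) it was −0.03 ± 0.07 with a 95% interval from −0.17 to 0.10 and an adjusted p of 0.787. With only the 2 groups compared in the fit, contrast 1 gave −0.18 and called Crebbp (adjusted p 0.0282).

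The fitted values differed between the contrasts more than the CPM did. The log2 ratio of the mean CPM of Crebbp was −0.17 in contrast 1 and −0.18 in contrast 2. Without surrogate variables (estimated axes of unlabelled variation among libraries, 9 in each fit), the fitted changes were −0.17 (adjusted p 0.0587) and −0.19 (adjusted p 0.0539). The difference between both backgrounds, tested as an interaction, was −0.13 ± 0.08 (adjusted p 0.883) with surrogate variables and −0.01 without them. A difference in the effect of Hdac2 KO on Crebbp between Htt+/+ and HttQ111/+ mice was not shown.

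Ep300 gave smaller values, none past the threshold. Its levels ran from 84.7 to 108 CPM (median 94.0) in HttQ111/+ Hdac2 WT and from 78.6 to 99.3 CPM (median 90.9) in HttQ111/+ Hdac2 KO, with wide overlap. The means of Ep300 in these 2 groups were 102 and 84.6 CPM in series V, 91.9 and 89.5 CPM in series Z and 89.3 and 98.1 CPM in series A, and 98.6 and 87.5 CPM in males and 91.1 and 95.3 CPM in females, so that Hdac2 KO was the higher in series A and in females. The change in contrast 2 was −0.09 ± 0.04 (p 0.0343, adjusted p 0.137), and in contrast 1, where CPM ran from 88.9 to 108 (median 92.6) and from 81.5 to 99.9 (median 88.9), it was 0.02 ± 0.04 (adjusted p 0.776). Ep300 had the only interaction with a nominal p under 0.05 among the 10 genes (−0.11 ± 0.05, p 0.0462, adjusted p 0.876), and it was 0.00 on the log2 scale (0.00191) without surrogate variables.

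Of the MYST family members Kat5, Kat6a, Kat6b and Kat8, Kat6b passed the threshold, in contrast 2. All 4 had fitted values below 0 there, and differences between them were not tested. Kat6b ranged from 69.6 to 84.0 CPM with a median of 76.1 in HttQ111/+ Hdac2 WT and from 52.2 to 73.1 CPM with a median of 69.2 in HttQ111/+ Hdac2 KO. All 11 Hdac2 KO libraries were below the Hdac2 WT mean, and the fitted change was −0.13 ± 0.04 (0.914-fold, adjusted p 0.0227). The mean was lower in Hdac2 KO in series V (78.3 and 66.8 CPM), Z (75.3 and 66.8 CPM) and A (73.7 and 70.3 CPM). In Htt+/+ mice Kat6b was 63.6 to 80.3 CPM (median 72.7) in Hdac2 WT and 65.5 to 79.1 CPM (median 67.8) in Hdac2 KO, a change of −0.03 ± 0.05 (adjusted p 0.704), and its interaction was −0.10 ± 0.05 (adjusted p 0.881). Kat6a, its paralogue, had a mean of 102 to 103 CPM in the Hdac2 WT groups and 97.0 to 98.1 CPM in the Hdac2 KO groups, with changes of 0.00 ± 0.05 (adjusted p 0.994) and −0.07 ± 0.04 (adjusted p 0.320) in contrasts 1 and 2. Kat5 had a change of −0.08 ± 0.04 in contrast 1 (p 0.0349, adjusted p 0.134), and its group means lay within 43.9 to 46.2 CPM. For Kat8 the 95% interval of the change was −0.11 to 0.11 in contrast 1 and −0.15 to 0.04 in contrast 2.

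The GCN5 and PCAF genes had fitted values of opposite sign. Kat2a ranged from 68.5 to 75.6 CPM (median 71.5) in Htt+/+ Hdac2 WT and from 65.1 to 70.3 CPM (median 67.0) in Htt+/+ Hdac2 KO, with all 9 Hdac2 KO libraries below the Hdac2 WT mean. The change in contrast 1 was −0.11 ± 0.04 (0.930-fold, adjusted p 0.0384). In HttQ111/+ mice it ranged from 61.8 to 74.5 CPM (median 69.7) in Hdac2 WT and from 60.7 to 71.7 CPM (median 66.6) in Hdac2 KO, and the change of −0.09 ± 0.03 did not pass (p 0.0125, adjusted p 0.0671). Kat2b was 33.7 to 41.2 CPM (median 36.9) and 35.7 to 41.7 CPM (median 39.1) in the Htt+/+ groups, and 33.03 to 42.0 CPM (median 38.8) and 33.1 to 49.2 CPM (median 39.9) in the HttQ111/+ groups, Hdac2 WT first. Its changes were 0.11 ± 0.05 (adjusted p 0.185) in contrast 1 and 0.10 ± 0.05 (p 0.0438, adjusted p 0.162) in contrast 2, and its values are above 0 in both without passing the test. Kat2b was called in contrast 1 with only the 2 groups compared (0.10, adjusted p 0.0335) and without the 2 mice with 1 floxed allele (0.16, adjusted p 0.0192).

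Ncoa1 and Hat1 did not pass in contrasts 1 and 2. Ncoa1, the most precisely measured of the 10, had a 95% interval of −0.10 to 0.03 in contrast 1 and −0.08 to 0.03 in contrast 2. For Hat1 the intervals were −0.06 to 0.14 and −0.09 to 0.08. Group means of Hat1 lay within 19.5 to 20.03 CPM.

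**Figure D3:**
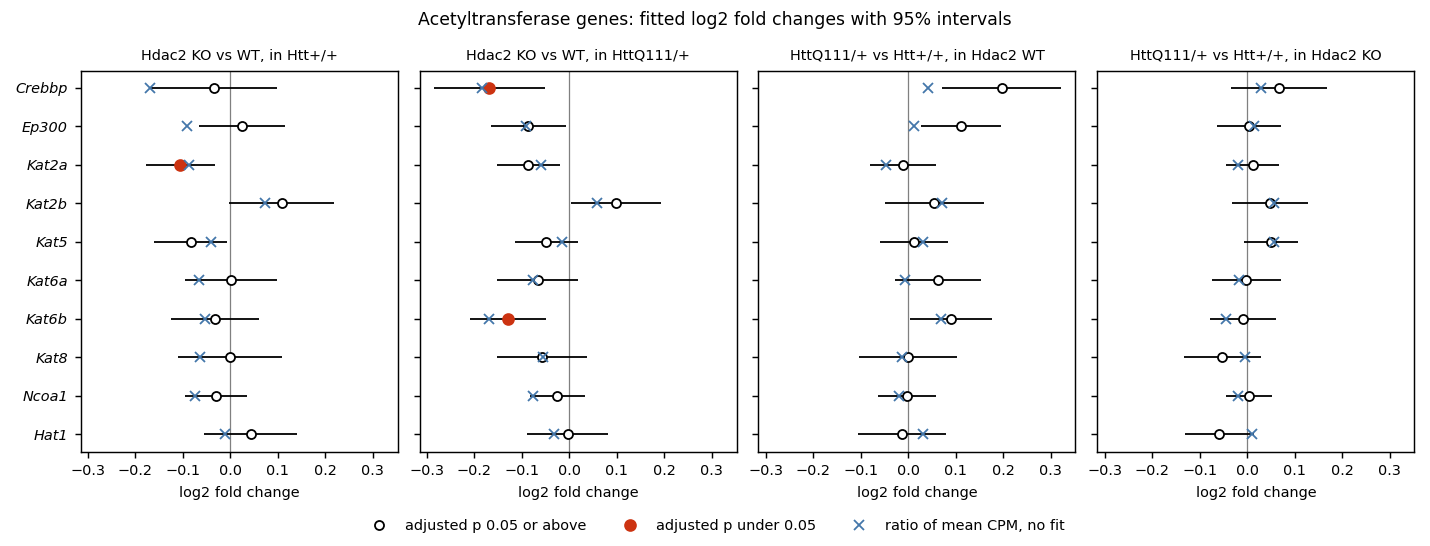
Fitted log2 fold changes of the 10 genes (circles, red where the adjusted p is under 0.05) with 95% intervals in 4 comparisons, and the log2 ratio of mean CPM without a fit (blue crosses). Crebbp and Kat6b pass in HttQ111/+ mice and Kat2a in Htt+/+ mice, and for Crebbp the circle and the cross lie apart in contrast 1 (−0.03 and −0.17) and contrast 3 (0.20 and 0.04).

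In counts, contrast 1 called 1 of the 10 genes, lower in Hdac2 KO, where 17.8% of 17126 genes tested were called. Contrast 2 called 2 of 10, both lower, where 16.5% of 17169 genes were called. At a nominal p under 0.05 the counts were 2 of 10 (background 29.0%) and 5 of 10 (background 28.1%). The median log2 change of the 10 genes was −0.02 in contrast 1 and −0.06 in contrast 2, and those of all genes tested were −0.001 and −0.004. In contrast 2 the fitted value was below 0 in 9 of the 10 genes, Kat2b being the exception, and in contrast 1 in 6 of the 10. The log2 ratio of mean CPM was below 0 in every one of them but Kat2b in both contrasts. So was the fitted value without surrogate variables.

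These calls changed with the libraries and covariates in the fit. Crebbp lost its call in contrast 2 when any 1 of 16 of the 35 libraries was left out (log2 change −0.20 to −0.11, adjusted p 0.0502 to 0.155): Htt+/+ Hdac2 WT replicates 2, 4, 6 and 9, HttQ111/+ Hdac2 WT 1, 3 and 5, Htt+/+ Hdac2 KO 1, 2 and 3, and HttQ111/+ Hdac2 KO 1, 3, 4, 6, 7 and 8. Kat2a lost it in contrast 1 without any 1 of 10 (−0.11 to −0.10, adjusted p 0.0521 to 0.200): Htt+/+ Hdac2 WT 2, 4 and 7, Htt+/+ Hdac2 KO 1, 2, 3 and 7, and HttQ111/+ Hdac2 KO 1, 2 and 4. Kat6b lost it without HttQ111/+ Hdac2 WT replicate 3 or 6 or HttQ111/+ Hdac2 KO replicate 8 (−0.11, −0.11 and −0.11, adjusted p 0.0501, 0.111 and 0.106). In contrast 2 calls were also gained: Kat2a without HttQ111/+ Hdac2 WT replicate 4 or HttQ111/+ Hdac2 KO replicate 7 (−0.09 and −0.10, adjusted p 0.0216 and 0.0246), and Kat2b without HttQ111/+ Hdac2 KO replicate 7 (0.15, adjusted p 0.0191). RNA extraction dates followed the Hdac2 genotype on all but 2 of 6 dates, and with date in place of the surrogate variables none of the 10 genes was called in either contrast (Crebbp −0.17, adjusted p 0.539; Kat6b −0.15, adjusted p 0.458; Kat2a −0.14 in contrast 1, adjusted p 0.185). That fit called 822 of 17126 genes in contrast 1 and 331 of 17169 in contrast 2. On 25 May, Crebbp was 55.2 CPM in the 1 HttQ111/+ Hdac2 KO library and 54.0 and 62.0 CPM in the 2 HttQ111/+ Hdac2 WT libraries, and Kat6b was 72.0 against 69.8 and 76.1 CPM. On 27 May, Kat2a was 70.0 CPM in the 1 Htt+/+ Hdac2 KO library and 69.6 to 74.7 CPM in 3 Htt+/+ Hdac2 WT libraries.

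Across the 35 libraries the genes with long transcripts rose and fell together. Crebbp, Ep300, Kat6a, Kat6b and Ncoa1 each have over 8000 nt of annotated exon, and the 10 pairs among them had Pearson correlations of log2 CPM from 0.50 (Ep300 and Kat6b) to 0.87 (Ep300 and Kat6a). Crebbp had 0.86 with Ep300 and 0.84 with Kat6a. The other 35 pairs ran from −0.41 (Kat2a and Kat2b) to 0.56 (Kat8 and Hat1). After removal of the group means the ranges were 0.40 to 0.87 and −0.37 to 0.57, so that the pattern lies within the groups as well. These correlations are a description, since the points share library, depth and scaling.

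**Figure D4:**
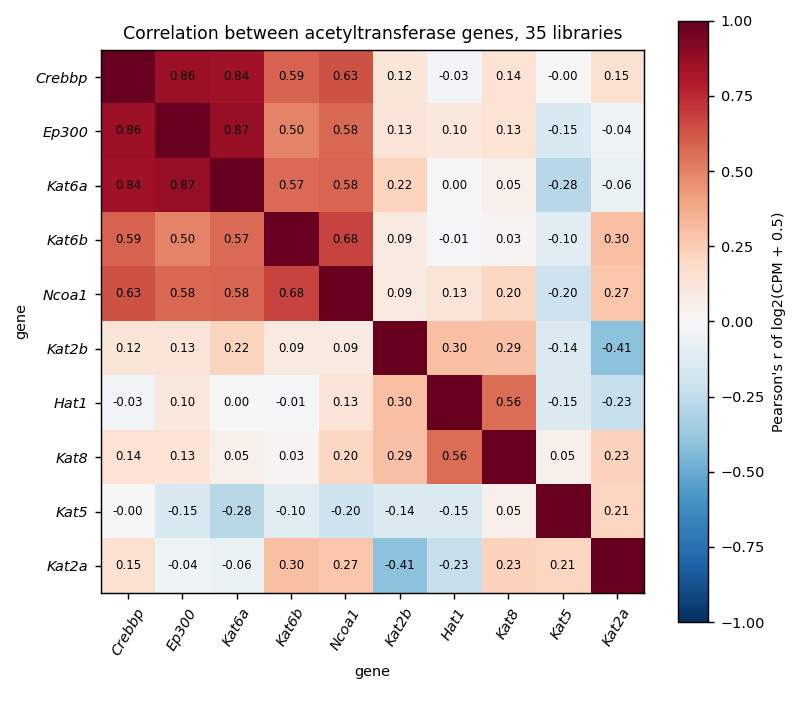
Pearson's r of log2(CPM + 0.5) between each 2 of the 10 genes over 35 libraries, on a scale from −1 (blue) to 1 (red), with the value in each cell. The block of Crebbp, Ep300, Kat6a, Kat6b and Ncoa1 at the upper left holds values from 0.50 to 0.87.

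The same 5 genes followed a measure of transcript length in each library, whose part in the results was not tested beyond the fits given here. It is the mean log2 CPM of 2556 genes with over 8000 nt of exon minus that of 3202 genes with 1000 to 3000 nt, centred over the libraries. Correlation with it was 0.70 (Kat6b) to 0.87 (Kat6a) for the 5 long genes, 0.79 for Crebbp and 0.78 for Ep300, and −0.36 to 0.31 for the other 5. After removal of the group means these ranges were 0.65 to 0.85 and −0.48 (Kat5) to 0.54 (Kat2b). The measure was 0.03 ± 0.05 (SD) in Htt+/+ Hdac2 WT, 0.03 ± 0.06 in HttQ111/+ Hdac2 WT, −0.01 ± 0.04 in Htt+/+ Hdac2 KO and −0.04 ± 0.11 in HttQ111/+ Hdac2 KO. Its 2 lowest values, −0.26 and −0.19, were those of HttQ111/+ Hdac2 KO replicates 4 and 7, which also had the 2 lowest Crebbp values, 43.6 and 44.7 CPM. Its highest value, 0.12, belonged to HttQ111/+ Hdac2 WT replicate 3, which had the highest Crebbp value, 76.6 CPM.

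Fits added after seeing the data used this measure. With the measure in place of the surrogate variables, contrast 2 gave −0.08 ± 0.05 for Crebbp (adjusted p 0.283) and −0.10 ± 0.05 for Kat6b (adjusted p 0.133), and 0 of the 10 genes were called by edgeR. Of all 17169 genes tested, 2301 were called in that fit. Contrast 1 gave −0.10 ± 0.05 for Crebbp (adjusted p 0.1003) and still called Kat2a (−0.10, adjusted p 0.0210). Without HttQ111/+ Hdac2 KO replicates 4 and 7, contrast 2 gave −0.13 for Crebbp (adjusted p 0.0983) and −0.11 for Kat6b (adjusted p 0.0651), and called Kat2a (−0.09, adjusted p 0.0481) and Kat2b (0.16, adjusted p 0.00737) in their place.

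**Figure D5:**
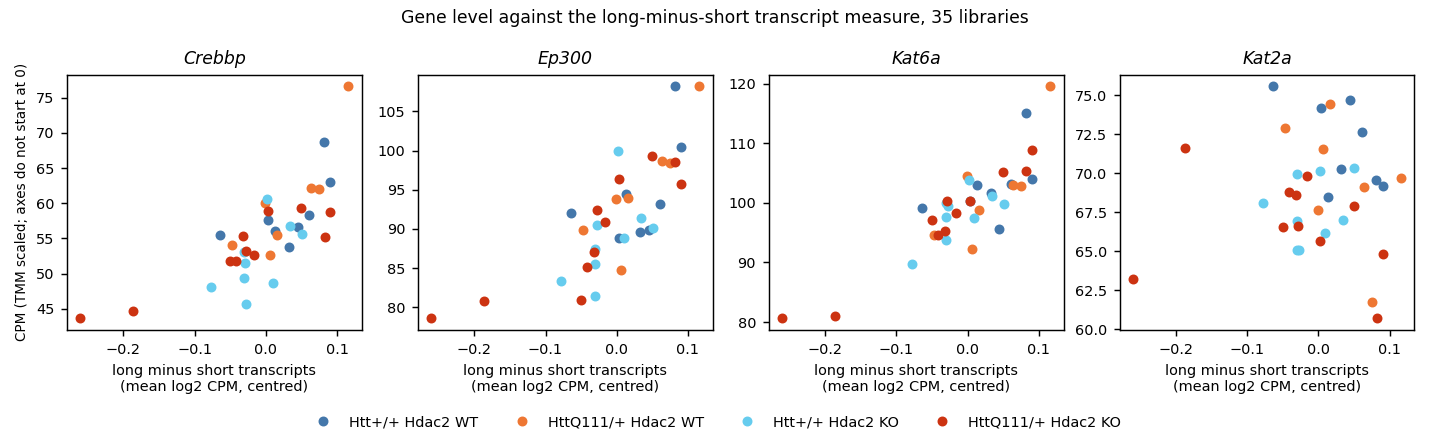
CPM of Crebbp, Ep300, Kat6a and Kat2a (vertical axes, which do not start at 0) against the centred difference in mean log2 CPM between long and short transcripts (horizontal axis) in 35 libraries coloured by group. The first 3 genes rise with the measure, with correlations of 0.79, 0.78 and 0.87, and Kat2a does not, with 0.00.

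The genes whose log2 CPM was most like that of each member over the 35 libraries were also long for the 5 long members. For Crebbp they were Bptf (r 0.87), a nucleosome remodeler subunit with a bromodomain, Prrc2c (0.86) and Helz (0.86). For Ep300 they were Cep350 (0.89), Map3k13 (0.87) and Ankrd17 (0.87), and for Kat6a Cep350 (0.88), Cbl (0.88) and Ago2 (0.85). Kat6b was most like Srcap (0.85), Nr2c2 (0.84) and Herc1 (0.83), and Ncoa1 most like the NMDA receptor gene Grin2b (0.90), Mbd5 (0.89) and Lyst (0.88). These genes have 8714 to 35542 nt of exon, and the median over all genes is 4507 nt. Kat2a was most like Ampd2 (0.81), Ap2a1 (0.81) and the neuronal splicing factor gene Rbfox3 (0.81), and Kat2b was most like Anln (0.84), Itch (0.74) and Tbc1d8b (0.70). For Kat5 the highest values were Trappc3, Cend1 and Surf1 (0.67, 0.66 and 0.66), for Kat8 Cct3, Ctnnbl1 and Hnrnpc (0.69, 0.67 and 0.65) and for Hat1 Ttc30b, Cct6a and Dars (0.77, 0.77 and 0.76). The comparison was over 13699 genes with a mean of at least 2 CPM.

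None of the 10 genes passed the threshold between HttQ111/+ and Htt+/+ mice with all libraries in the fit, and Crebbp passed it in Hdac2 WT mice without the 2 mice with 1 floxed allele (0.24, adjusted p 0.0474). That fit called 258 of 17176 genes. Over the 15 alternatives beside leaving out 1 library, the change of Crebbp ran from 0.005 to 0.24, and only that 1 passed. In Hdac2 WT mice (contrast 3) 0 of 10 were called by edgeR and 0 by DESeq2, where 0.403% of 17133 genes were called (23 to 143 genes with 1 library left out), and 3 of 10 had a nominal p under 0.05 (background 10.9%). These were Crebbp (0.20 ± 0.06, p 0.00322, adjusted p 0.181), Ep300 (0.11 ± 0.04, p 0.0118, adjusted p 0.288) and Kat6b (0.09 ± 0.04, p 0.0436, adjusted p 0.438), all with fitted values above 0 in HttQ111/+. The CPM of Crebbp overlapped almost fully between the groups (medians of 57.1 and 60.04), with 4 of 7 HttQ111/+ libraries above the Htt+/+ mean, and the log2 ratio of mean CPM was 0.04. The fit without surrogate variables gave 0.04 (adjusted p 0.844) for Crebbp, 0.01 for Ep300 and 0.07 for Kat6b. Within extraction dates the ratio for Crebbp was −0.06 on 24 May, 0.04 on 25 May and 0.19 on 27 May. Both HttQ111/+ Hdac2 WT mice of 27 May were of series V, with 137 and 140 CAG units. Contrasts 2 and 3 share the 7 HttQ111/+ Hdac2 WT libraries, so that a high value there raises one and lowers the other. The MSN markers differ between these groups as given above, and their part in these values was not tested.

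In Hdac2 KO mice (contrast 4) 0 of 10 genes were called by edgeR or DESeq2, with 0 at a nominal p under 0.05, against backgrounds of 0.00584% and 7.52% of 17110 genes. With 1 library left out, 0 to 33 genes were called in this contrast. The fitted changes lay between −0.06 (Hat1) and 0.07 (Crebbp). The 95% interval of Crebbp was −0.03 to 0.17 and that of Ep300 −0.06 to 0.07. No interaction was called in the 10 genes by edgeR or DESeq2 (backgrounds 0.00577% of 17346 genes, and 5.63% at a nominal p under 0.05, where 1 of the 10, Ep300, lay).

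Mice with both changes were set against mice with neither in contrast 5, which shares libraries with all the other contrasts. It called 2 of 10 genes, Kat2a lower (−0.10 ± 0.03, adjusted p 0.0382, 11 of 11 libraries below the Htt+/+ Hdac2 WT mean) and Kat2b higher (0.16 ± 0.05, 1.11-fold, adjusted p 0.0237, 10 of 11 above it), where 21.2% of 17088 genes were called. At a nominal p under 0.05 the same count of 2 stood against 31.8%. Kat2a lost this call without any 1 of 16 libraries (−0.10 to −0.08, adjusted p 0.0516 to 0.247): Htt+/+ Hdac2 WT 2, 4 and 7, HttQ111/+ Hdac2 WT 1, 3 and 5, Htt+/+ Hdac2 KO 1, 2, 3 and 7, and HttQ111/+ Hdac2 KO 1, 3, 4, 5, 6 and 8. Kat2b lost it without Htt+/+ Hdac2 WT replicate 2 (0.16, adjusted p 0.109) or HttQ111/+ Hdac2 KO replicate 8 (0.13, adjusted p 0.0854). Without surrogate variables Kat2b was not called (0.13, adjusted p 0.0671) and Ncoa1 was (−0.10, adjusted p 0.0382), and the same held with sex as covariate (Ncoa1 adjusted p 0.0465). With only the 2 groups compared, Crebbp was called as well (−0.13, adjusted p 0.0220). Crebbp was 0.03 ± 0.06 in the fit with all libraries and −0.14 in the ratio of mean CPM, and in the 1 HttQ111/+ Hdac2 KO library of 25 May it was 55.2 CPM against 55.4 to 58.4 CPM in 3 Htt+/+ Hdac2 WT libraries.

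Around these enzymes, 8 lists of partners and related genes held 134 genes. In contrast 1, 6 of 133 tested were higher and 17 lower in Hdac2 KO, or 4.51% and 12.8%, where 9.06% and 8.79% of all genes were higher and lower. In contrast 2 they were 4 and 23 of 134, or 2.99% and 17.2%, against 7.68% and 8.86% of all genes. In contrasts 3 and 4 and in the interaction 0 of them were called. The shares of all genes given here also apply to the counts of each list below, and no list was tested as a set. The 4 class I deacetylase genes were listed apart: Hdac1 rose in both contrasts (0.54 ± 0.07 and 0.49 ± 0.06, adjusted p 7.35e-07 and 5.49e-07), and Hdac2 fell in contrast 2 (−0.12 ± 0.03, adjusted p 0.00198) and was at −0.09 ± 0.03 in contrast 1 (adjusted p 0.0552).

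Among 19 other acetyltransferase genes, 5 of 18 tested fell in contrast 1 and none rose. In contrast 2, 5 of 19 fell and 1 rose. Naa40, which acetylates the N-terminus of histones H4 and H2A, fell from 43.3 ± 3.15 to 38.5 ± 2.23 CPM in Htt+/+ mice (−0.21 ± 0.05, adjusted p 0.00438) and from 40.5 ± 4.30 to 37.2 ± 2.92 CPM in HttQ111/+ mice (−0.16 ± 0.05, adjusted p 0.0184). Mcm3ap, which acetylates the replication factor MCM3, fell in both (−0.18 ± 0.03 and −0.16 ± 0.03, adjusted p 7.98e-05 and 9.81e-05). Cdyl, a chromodomain protein, rose in contrast 2 (0.17 ± 0.06, adjusted p 0.0455). The median change of the list was −0.05 in contrast 1 and −0.06 in contrast 2, beside −0.001 and −0.004 over all genes.

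Partners of the MYST enzymes included 2 related scaffolds that fell in both contrasts. Of 8 partners of MOZ, MORF and HBO1, 3 fell in each of contrasts 1 and 2 and none rose. Phf15 (now Jade2), a scaffold of the HBO1 complex, fell from 122 ± 5.13 to 94.5 ± 4.56 CPM in Htt+/+ mice (−0.32 ± 0.04, adjusted p 2.07e-07) and from 111 ± 6.86 to 93.5 ± 4.65 CPM in HttQ111/+ mice (−0.24 ± 0.03, adjusted p 4.86e-06). Phf17 (now Jade1), of the same family, fell from 73.3 ± 3.37 to 56.8 ± 4.31 CPM (−0.26 ± 0.04, adjusted p 1.85e-05) and from 71.4 ± 5.12 to 59.8 ± 3.14 CPM (−0.21 ± 0.03, adjusted p 3.60e-05). Of 15 TIP60 complex subunits, 1 rose and 1 fell in contrast 1 and 2 fell in contrast 2: Epc2 fell in both (−0.14 ± 0.05 and −0.17 ± 0.04, adjusted p 0.0395 and 0.00645), Actl6b, a neuronal actin-related protein, rose in contrast 1 (0.13 ± 0.04, adjusted p 0.0121) and Ing3 fell in contrast 2 (−0.16 ± 0.05, adjusted p 0.0322). Of 12 MSL and NSL subunits, which work with MOF, Msl3 rose (0.17 ± 0.05, adjusted p 0.0319) and Msl1 fell (−0.13 ± 0.03, adjusted p 0.00541) in contrast 1 and none was called in contrast 2.

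Of 24 SAGA and ATAC subunits, which carry GCN5 and PCAF, 2 fell in contrast 1 and 4 in contrast 2, and none rose. Of all genes, 8.79% and 8.86% were called lower in these contrasts. Taf6l fell from 7.06 ± 0.936 to 5.86 ± 0.631 CPM (−0.32 ± 0.10, adjusted p 0.0195) and Eny2 from 61.7 ± 3.79 to 58.5 ± 4.13 CPM (−0.12 ± 0.04, adjusted p 0.0248) in contrast 1. In contrast 2 the largest falls of those called were those of Zzz3 (−0.18 ± 0.04, adjusted p 7.38e-04) and Trrap, a scaffold that TIP60 also uses (−0.14 ± 0.03, adjusted p 0.00341).

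Of 20 CREB factors, CRTC coactivators and CBP binders, 1 rose and 2 fell in contrast 1, and 1 rose and 4 fell in contrast 2. Crtc1, a coactivator of CREB in neurons, fell in both (−0.14 ± 0.03 and −0.20 ± 0.03, adjusted p 0.00169 and 6.32e-06), from 255 ± 17.6 to 239 ± 20.9 CPM and from 242 ± 10.5 to 224 ± 24.8 CPM. Crem, a CREB relative, fell from 20.7 ± 2.45 to 15.1 ± 2.63 CPM in contrast 1 (−0.28 ± 0.08, adjusted p 0.00741), and Crebl2 fell in contrast 2 (−0.20 ± 0.06, adjusted p 0.0304). Stat3, which binds CBP and p300, rose in both (0.27 ± 0.04 and 0.16 ± 0.04, adjusted p 1.45e-05 and 0.00180).

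Of 26 acetyl-lysine readers, 3 rose and 2 fell in contrast 1, and 2 rose and 4 fell in contrast 2. Trim24 rose in both (0.27 ± 0.05 and 0.22 ± 0.04, adjusted p 1.19e-04 and 3.78e-04), as did Baz2b (0.20 ± 0.05 and 0.17 ± 0.04, adjusted p 0.00311 and 0.00403). Atad2 fell in both (−0.41 ± 0.09 and −0.27 ± 0.07, adjusted p 0.00102 and 0.0127), from 8.56 ± 0.670 to 6.19 ± 0.612 CPM and from 8.79 ± 0.859 to 6.79 ± 0.856 CPM. Brwd1 fell in contrast 1 (−0.08 ± 0.03, adjusted p 0.0434). Of 10 genes of acetyl-CoA metabolism, Acat2 fell in both contrasts (−0.27 ± 0.06 and −0.18 ± 0.05, adjusted p 0.00142 and 0.0205) and no other was called.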

How the data were processed

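Striatal RNA was sequenced from poly(A) libraries of 35 mice made with a stranded kit, 1 library per mouse. The deposited values are counts: the authors aligned reads to GRCm38 (Ensembl 75) with GSNAP and counted unique alignments over each whole gene interval with bedtools, so that intronic reads are included. FastQC, SAMtools and edgeR are also named in the submitters' processing notes. Strand use in the counting is not given in the sources used here. Spike-ins (92 entries), 6152 short entries and 2 mitochondrial rRNAs were removed, which left 32863 entries. Groups came from the labels. Each contrast was fitted to all 35 libraries in R 4.3.3 with edgeR 4.0.16 (quasi-likelihood F test, TMM scaling, Benjamini-Hochberg adjustment over all genes tested), with 9 surrogate variables from sva 3.50.0, on genes for which no library of 1 or both compared groups fell under 6 counts. A gene was called at an adjusted p under 0.05. No 2 libraries agreed within sampling noise (lowest chi-square per degree of freedom 8.45). Alternatives were DESeq2 1.42.0, other scaling, filters, covariates and subsets of libraries, and leaving out each library. The steps were tested on simulated data.

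The text names all 10 genes, Hdac2 and Hdac1, from each list and contrast the 2 highest and 2 lowest fold changes among called genes with a mean log2 CPM of 1 or more, and the 3 genes most correlated with each member. A gene that this rule names is not reported here. The members and lists were chosen with earlier results of these data known. Exon lengths came from the supplied annotation and promoters from RefSeq.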

Additional observations from a re-analysis of the deposited data

Results flagged for a closer look

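Of 30 groups of 4 to 10 libraries examined for the 10 genes, 3 held a library far from the others by Dixon's criterion, and chance gives about 1 group in 20. Crebbp was 76.6 CPM in HttQ111/+ Hdac2 WT replicate 3, with a gap to the next library of 0.602 of the group's range (critical value 0.568). Kat6a was 115.1 CPM in Htt+/+ Hdac2 WT replicate 4 (0.570 of the range, critical value 0.526). Kat2b was 41.2 CPM in Htt+/+ Hdac2 WT replicate 8 (0.531 of the range, critical value 0.526). Without HttQ111/+ Hdac2 WT replicate 3, Crebbp was not called in contrast 2.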

How the results depend on the processing

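The number of the 10 genes called was 1 in contrast 1. It became 0 with no count filter, with extraction date as covariate and in males only, 2 without the mice with 1 floxed allele, and 3 with only the groups compared (Crebbp, Kat2a and Kat2b). All genes called moved too: 3056 of 17126 in the main fit, 2693 of 26299 with no count filter and 822 of 17126 with date. They were 1970 of 17383 in males only, 4257 of 17177 without the mice with 1 floxed allele and 5094 of 17126 with only the groups compared. In contrast 2 the number of the 10 genes called was 2. It became 1 with no count filter, with no surrogate variables, with sex or with the animal ID series as covariate, and 0 with extraction date, in males only and with the measure of long against short transcripts, added after seeing the data. All genes called were 2841 of 17169 in the main fit, 2356 of 26299 with no count filter and 1711 of 17440 in males only. Of 17169 genes, 2311 were called with no surrogate variables, 2332 with sex and 2892 with ID series. With date 331 were called, and with the long-against-short measure 2301. In contrast 3 the number of the 10 was 0 and became 1 without the mice with 1 floxed allele (Crebbp 0.24, adjusted p 0.0474). All genes called there were 69 of 17133 in the main fit and 258 of 17176 without those mice. In contrast 5 the number of the 10 was 2 and became 1 with no count filter and without those mice, and 0 with extraction date and in males only. It was 3 with only the groups compared (Crebbp, Kat2a and Kat2b), and it stayed at 2 with Ncoa1 in place of Kat2b with no surrogate variables, with sex and with the replicate block. All genes called were 3627 of 17088 in the main fit, 3237 of 26299 with no count filter and 4013 of 17141 without those mice. They were 2263 of 17288 in males only. Of 17088 genes, 798 were called with date and 5619 with only the groups compared. With no surrogate variables 4101 were called, with sex 4127 and with the replicate block 3962. In contrast 4 and the interaction the number of the 10 was 0 under every alternative run, and fitting only the groups compared was not run for the interaction. Leaving out each library in turn, in a shared fit that kept the surrogate variables of all 35 libraries, gave 0 to 1 of the 10 in contrast 1, 0 to 3 in contrast 2, 0 in contrast 3 and 0 to 2 in contrast 5. All genes called in these fits were 2143 to 3110, 1990 to 2885, 23 to 143 and 2440 to 3699. The fitted change of Ep300 turned direction in contrast 3 with only the groups compared (−0.017) and in the interaction without surrogate variables (0.0019) and with the long-against-short measure (0.027). With a replicate block the counts were 2 in contrast 1 (Kat2a, and Crebbp at −0.19, adjusted p 0.0459) and 0 in contrast 2, and the interaction of Ep300 was 0.016. That fit called 4351 of 17126 genes in contrast 1 and 1854 of 17169 in contrast 2. The labels share only numbers: the 45 same-number pairs had a median correlation of deviations of 0.063 (16 over 0.1), and 4 of 33 libraries correlated best with their own number. The cause of these changes was not tested. The 10 genes had at least 753 counts per library, and the SEs of their fitted changes were 0.02 to 0.08.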
